A study of Mus musculus with 10 samples.

Results

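Dectin-1 (Clec7a) and 8 genes related to it by family or signalling were followed in the inflamed synovium of 10 mice, out of 18128 genes that the array table names singly. The 9 genes were taken by name: the receptors Clec7a, Clec4d, Clec4e, Clec4n, Clec4a2, Clec5a, Clec10a and Clec12a, and the adaptor Card9. The probe set of each gene was chosen by its mean score, as the one with the highest mean over the 10 arrays among those naming it alone. Such a probe set existed for 7 genes. Clec12a, an inhibitory receptor, and Card9 had none and were not analysed here. The genes were proposed with earlier results of these data known, and Clec7a was singled out with its difference between the groups in view. Its own values are therefore a description, and those of its relatives are read against all genes.

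C-type lectin receptors of myeloid cells bind sugars, glycolipids and some host proteins through a carbohydrate-recognition-like fold. Dectin-1 binds fungal beta-glucan and signals through a tyrosine motif in its own tail to the kinase Syk. Dectin-2 (Clec4n), Mincle (Clec4e) and MCL (Clec4d) signal through the adaptor FcR gamma (Fcer1g), Clec5a signals through DAP12 (Tyrobp) and DAP10 (Hcst), and the Syk signal is passed on by CARD9, BCL10 and MALT1 to NF-kB. Clec4a2 (DCIR) instead carries an inhibitory motif, and Clec10a (MGL1) is a galactose-type lectin of macrophages and dendritic cells. Macrophages, monocytes, neutrophils and dendritic cells carry these receptors in inflamed joints.

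All mice were male DBA/1J, bought at 5 weeks of age and labelled as 8 weeks old, and all had collagen antibody-induced arthritis. An antibody against type II collagen (1 mg) was injected on day 8, lipopolysaccharide (25 µg) followed on day 11, and the mice were killed on day 12. Vehicle mice (n = 5) received corn oil by mouth, and maslinic acid mice (n = 5) received that olive triterpene daily in the same oil, at a dose of 200 mg/kg. The mice on arrays were a selection from larger groups, and the untreated mice of the study were not analysed here. Because a piece of dissected synovium holds many cell types, fewer cells of a type and less RNA per cell cannot be told apart.

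The table gives a score per probe set and array. Scores ran from 5.12 to 13.9 like log2 intensities, but 93.5% of probe sets ranged over less than 0.001 across the arrays, so differences are not log2 fold changes and their scale is unknown. Values are therefore given as the deviation from the mean of the 10 arrays in thousandths of the deposited score, and the group difference as Hedges' g, the mean of maslinic acid mice less that of vehicle mice, divided by the pooled SD of the groups and corrected for small n. A deviation of one gene cannot be set against that of another. Of the marker lists of 9 cell types, those of synovial fibroblasts, dendritic cells, skeletal muscle, mast cells and platelets were measured in full. No marker of any list was at 0, on a scale whose lowest value is 5.12. The scores therefore do not show that a cell type was absent.

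Of the 9 genes, 7 lie on chromosome 6. In the RefSeq annotation (GRCm38.p6) Clec4n, Clec4d and Clec4e are consecutive coding genes, and Clec7a stands between Clec1a and Olr1. RefSeq's promoter table held 7 of the 9 genes. The 250 bases before the start are printed for Clec7a and Clec5a, which had the lowest p-values, and for the neighbours Clec4d and Clec4e, whose arrays ran in parallel. Capitals mark GAGGAA or its reverse complement TTCCTC, the core letters bound by PU.1, the ETS factor of the myeloid lineage. The windows, 5' to 3' on the gene's strand, are chr6:129472786-129473035 (minus) for Clec7a, chr6:40585806-40586055 (minus) for Clec5a, chr6:123261857-123262106 (plus) for Clec4d and chr6:123289872-123290121 (minus) for Clec4e.
Clec7a: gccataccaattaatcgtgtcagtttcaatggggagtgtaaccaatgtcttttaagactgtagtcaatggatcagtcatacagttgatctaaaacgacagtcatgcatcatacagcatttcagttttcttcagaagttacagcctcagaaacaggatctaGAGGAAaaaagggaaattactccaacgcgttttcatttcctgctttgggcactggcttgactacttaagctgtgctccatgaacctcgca
Clec5a: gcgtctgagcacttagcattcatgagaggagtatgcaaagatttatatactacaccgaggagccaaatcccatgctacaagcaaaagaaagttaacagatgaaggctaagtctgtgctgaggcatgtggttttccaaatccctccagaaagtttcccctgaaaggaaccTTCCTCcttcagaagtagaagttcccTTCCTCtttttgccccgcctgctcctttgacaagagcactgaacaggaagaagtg
Clec4d: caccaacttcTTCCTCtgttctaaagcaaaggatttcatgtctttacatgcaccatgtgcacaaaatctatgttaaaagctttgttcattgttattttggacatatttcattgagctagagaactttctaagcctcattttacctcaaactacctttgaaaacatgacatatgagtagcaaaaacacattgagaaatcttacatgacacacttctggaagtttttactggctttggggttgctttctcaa
Clec4e: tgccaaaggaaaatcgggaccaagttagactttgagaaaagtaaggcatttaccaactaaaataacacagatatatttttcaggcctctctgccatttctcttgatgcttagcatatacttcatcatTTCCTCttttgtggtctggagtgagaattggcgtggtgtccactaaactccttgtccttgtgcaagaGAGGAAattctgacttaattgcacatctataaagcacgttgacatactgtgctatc
The PU.1 letters stood in the windows of 5 of the 7 genes, and in 23.1% of 27025 promoter windows of the same length. The 5 were the printed genes and Clec12a, while the windows of Clec4a2 and Card9 held no match. Clec7a held 1 match, whose far end lay 90 bases before the start, Clec4d held 1 at 240 bases, Clec5a held 2 at 81 and 55 bases, and Clec4e held 2 at 123 and 56 bases. Other letters searched on both strands were TGANTCA for AP-1, in 1 of the 7 windows (Clec12a) and 6.85% of all, TTGCNNAA for C/EBP, in 2 of 7 (Clec4e and Clec12a) and 9.55% of all, and the NF-kB consensus, in 0 of 7 and 7.03% of all. Overlap between matches of different motifs was not examined. A match describes letters and not binding, which was not measured.

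The question was whether the relatives follow Clec7a when arthritic mice with and without maslinic acid are compared. All 6 measured relatives had a lower mean in maslinic acid mice, with a median g of -0.73 and a range from -1.88 to -0.41, and so did Clec7a, which was picked for it. Among all genes 48.3% had a lower and 47.9% a higher mean, and the median g was 0.00. Among the 6743 genes that, like these 7, had 10 distinct values on the 10 arrays, 39.6% had a lower mean and the median was 0.23. The 6 relatives are not independent results, as many pairs of them were correlated over the arrays. Vehicle replicates 3 and 5 together held the highest place of every gene. In the limma fit over all 39993 probe sets, 0 of the 7 genes passed a Benjamini-Hochberg adjusted p of 0.05, and neither did any other probe set (0.0% of genes). On simulated data with 5 arrays per group, 2 of 50 probe sets lowered by 2 SD passed (median g = -1.67), and 32 of 50 lowered by 4 SD. That 0 passed here therefore does not show that the genes were unchanged. At an unadjusted p under 0.05 there was 1 of the 6 relatives, Clec5a, besides Clec7a itself, against 4.54% of all genes lower and 4.29% higher, or 8.83% in either direction, and 4.67% lower among the genes with 10 distinct values. Of the genes at that p 51.4% were lower, a share that was 85.8% after quantile normalization and 37.9% with arrays centred on their medians. A lower mean was found for 58.0% of all genes after quantile normalization and for 85.1% with centring, so the direction of a gene under those scalings says little.

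Clec7a, the beta-glucan receptor, had scores of 7.85, 7.85, 8.04, 7.82 and 7.93 in vehicle replicates 1 to 5, and of 7.82, 7.80, 7.80, 7.73 and 7.78 in maslinic acid replicates 1 to 5. Every maslinic acid array lay below every vehicle array, which held for 0.734% of all genes and for 1.17% of those with 10 distinct values. The gap was narrow. Vehicle replicate 4 was at -25.5 thousandths and maslinic acid replicate 1 at -27.4, while vehicle replicates 3 and 5 stood far above the rest at 202 and 88.2. The difference of the means was -113 thousandths (SD 91.5 in vehicle and 32.9 in maslinic acid mice). In units of spread it was g = -1.48 (95% CI -2.78 to -0.12), with an adjusted p of 0.506 in limma and an exact permutation p of 0.00794, two-sided, the smallest that 5 against 5 arrays can give. Because the gene was picked for this difference, neither p is support for it. Without vehicle replicates 3 and 5 together g was -1.60.

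Clec5a, an activating receptor of monocytes and neutrophils, ran closest to Clec7a in its group difference. Vehicle replicates 1 to 5 were at 0.0834, 0.674, 0.823, -0.0866 and 2.21 thousandths, and maslinic acid replicates 1 to 5 at -0.829, -0.0466, -1.28, -0.78 and -0.765. The groups overlapped by 1 pair of arrays, vehicle replicate 4 and maslinic acid replicate 2. Here g was -1.88 (95% CI -3.28 to -0.40), the adjusted p in limma was 0.476 and the exact permutation p was 0.0159. Leaving out single arrays moved g between -2.23 and -1.64.

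The neighbours Clec4n, Clec4d and Clec4e differed less. Clec4n (Dectin-2) was at -0.432, 0.643, -0.13, -0.307 and 3.6 thousandths in vehicle replicates 1 to 5, and at -1.05, 1.11, -0.772, -1.08 and -1.58 in the maslinic acid mice. In 4 of 5 maslinic acid mice it lay below all vehicle mice, but maslinic acid replicate 2 was the second highest array of all, and g was -0.87 (95% CI -2.04 to 0.35). Clec4d (MCL), which pairs with Mincle at the cell surface, was at -0.667, 5.32, -0.626, -5.37 and 12.2 thousandths in vehicle and at -1.27, 5.14, 2.27, -10.5 and -6.46 in maslinic acid mice. The groups of Clec4d overlapped widely, with g = -0.60 (95% CI -1.74 to 0.58). Clec4e (Mincle), a sensor of mycobacterial glycolipid and of dying cells, was at 0.0786, 1.15, -1.31, -0.922 and 3.73 thousandths in vehicle and at -0.0534, 0.144, -0.514, -1.05 and -1.25 in maslinic acid mice. Its lowest array was a vehicle array, replicate 3, and g was -0.66 (95% CI -1.81 to 0.52). In limma their adjusted p-values were 0.645 for Clec4n, 0.752 for Clec4d and 0.722 for Clec4e. Each of the 3 genes was highest on vehicle replicate 5, and without it g was -0.65 for Clec4n, -0.29 for Clec4d and -0.31 for Clec4e. The probe sets of Clec4d and Clec4n carry a type label of the array maker for probes shared by several transcripts, so that signal from a near relative cannot be told apart.

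Clec4a2, the inhibitory receptor of the set, was at -0.174, 0.0345, 0.421, -0.0775 and 0.286 thousandths in vehicle replicates 1 to 5 and at -0.212, 0.234, -0.163, -0.197 and -0.153 in maslinic acid mice. Maslinic acid replicate 2 stood apart from its group, among the high vehicle arrays, and g was -0.80 (95% CI -1.97 to 0.40, adjusted p = 0.671 in limma). Without vehicle replicates 3 and 5, g of Clec4a2 was -0.14. Clec10a was at -0.247, -0.016, 1.41, -0.155 and -0.35 thousandths in vehicle and at 0.089, 0.282, -0.189, -0.24 and -0.58 in maslinic acid mice. Only vehicle replicate 3 lay above all the maslinic acid arrays, with g = -0.41 (95% CI -1.53 to 0.74, adjusted p = 0.830 in limma). The direction of Clec10a rests on that array, as g was 0.22 without it and 0.04 without vehicle replicates 3 and 5.

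**Figure D1:**
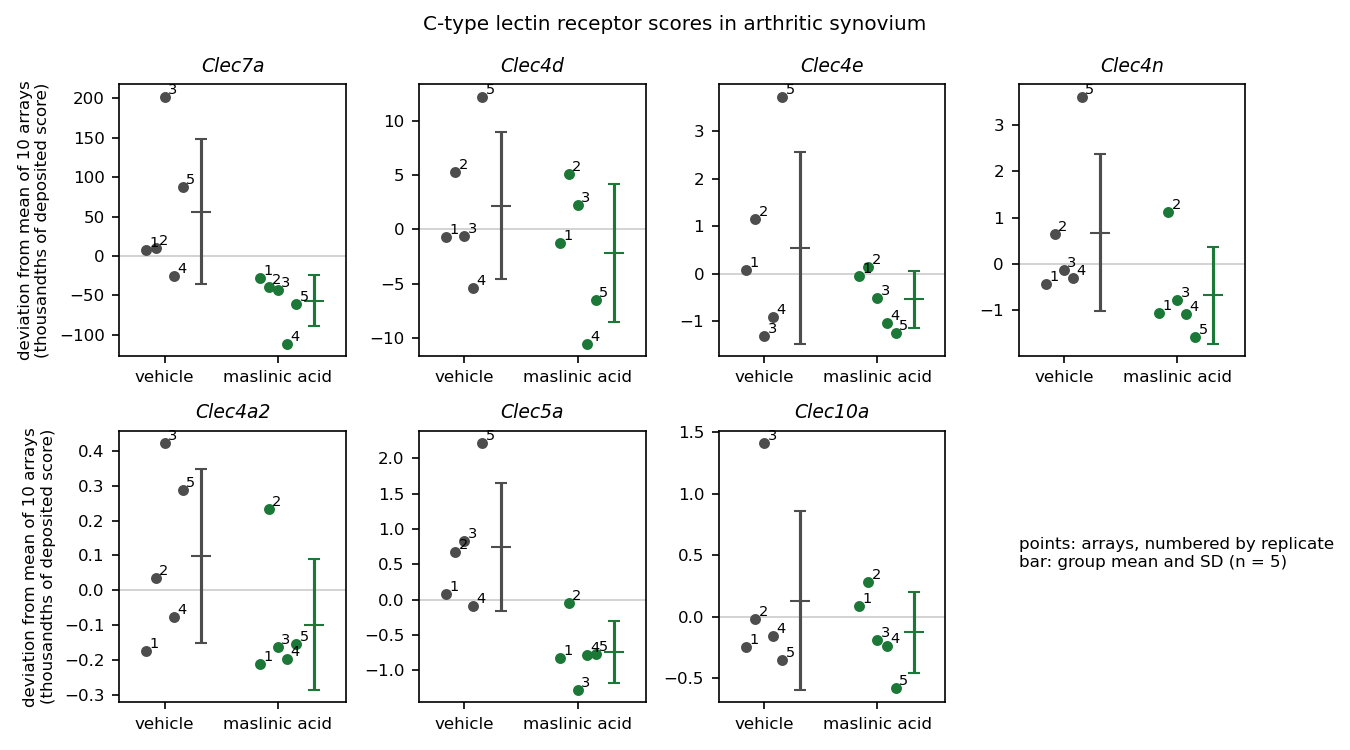
Deviation of each array from the mean of 10 arrays, in thousandths of the deposited score, for the 7 measured genes by group; points are arrays numbered by replicate, and the bar is the group mean with its SD (n = 5). Clec7a is the gene whose groups do not overlap, vehicle replicate 5 leads Clec4d, Clec4e, Clec4n and Clec5a, and vehicle replicate 3 leads Clec7a, Clec4a2 and Clec10a.

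A second probe set existed for 3 of the genes and gave the same direction. It followed the first closely over the 10 arrays, with Pearson's r of 0.96 for Clec4e, 0.973 for Clec4n and 0.974 for Clec4a2, given as a description because both probe sets read the same RNA on the same arrays. The second probe set had g = -0.59 (95% CI -1.73 to 0.58) for Clec4e, the same to 2 decimals for Clec4n, and -1.06 (95% CI -2.26 to 0.20) for Clec4a2. Their adjusted p-values in limma were 0.755, 0.755 and 0.594.

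**Figure D2:**
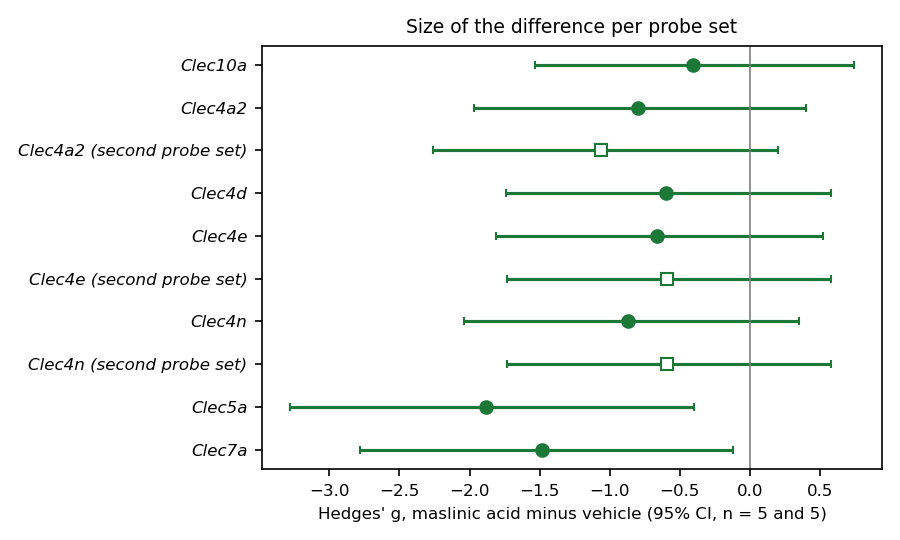
Hedges' g for maslinic acid minus vehicle with its 95% CI for each probe set of the measured genes (n = 5 and 5 arrays); filled circles are the probe sets used and open squares the second ones. All points lie below 0, and the intervals of Clec5a and Clec7a leave 0 out before any adjustment over the table.

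The highest array split the genes in 2. Vehicle replicate 5 was the highest array of 4 genes (Clec4d, Clec4e, Clec4n and Clec5a), and vehicle replicate 3 of the other 3 (Clec7a, Clec4a2 and Clec10a). These 2 mice thus took every highest place. The split was not clean, as vehicle replicate 5 was second highest for Clec7a and Clec4a2, and vehicle replicate 3 for Clec5a. The lowest places were spread over maslinic acid replicates 4 and 5 with 2 genes each, maslinic acid replicates 1 and 3 with 1 each, and vehicle replicate 3 with 1 (Clec4e). Maslinic acid replicates 4 and 5 were below the mean in all 7 genes, and so was vehicle replicate 4. Maslinic acid replicate 2 was above the mean in 5 of 7. In 1 gene each, Clec10a and Clec4d, maslinic acid replicates 1 and 3 were also above the mean. Low values of these receptors were thus found in both groups, and values above the mean in some treated mice.

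Over the 10 arrays, 1 of 6 relatives was correlated with Clec7a at an adjusted p under 0.05 over the 6 relations. It was Clec4a2 (r = 0.795, permutation p = 0.00547, adjusted 0.0328; rho = 0.636, p = 0.0559, adjusted 0.101). For Clec5a r was 0.715 (permutation p = 0.0268, adjusted 0.0803), and its rank correlation was the highest of the relatives (rho = 0.830, permutation p = 0.00508, adjusted 0.0305). Clec10a had r = 0.718 (permutation p = 0.0533, adjusted 0.107) and rho = 0.309 (p = 0.385, adjusted 0.385). Clec4d had r = 0.465 (permutation p = 0.180, adjusted 0.216) and rho = 0.612 (p = 0.0676, adjusted 0.101). Clec4n had r = 0.451 (permutation p = 0.177, adjusted 0.216) and rho = 0.721 (p = 0.0235, adjusted 0.0706). Clec4e had the lowest values, r = 0.259 (permutation p = 0.412, adjusted 0.412) and rho = 0.321 (p = 0.370, adjusted 0.385). As a description, 3.64% of all other genes with any spread had a higher r with Clec7a than Clec4a2 did, 6.54% than Clec10a, 6.70% than Clec5a, 20.0% than Clec4d, 20.7% than Clec4n and 33.0% than Clec4e.

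**Figure D3:**
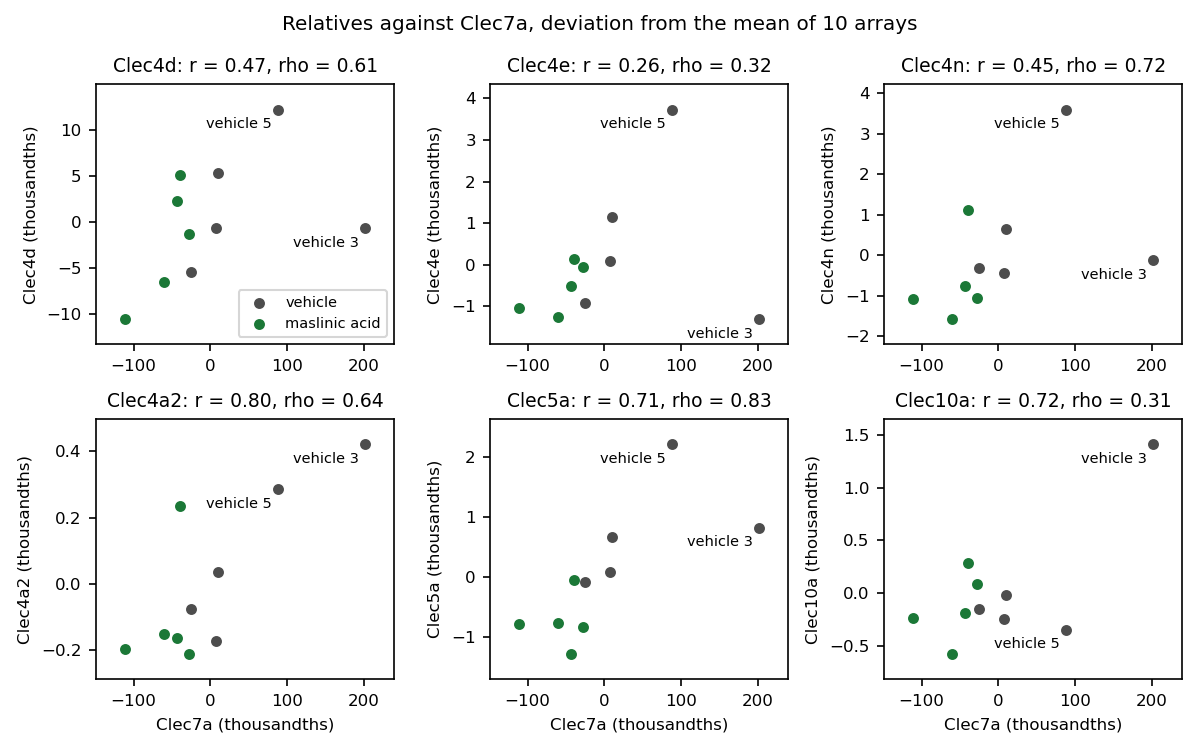
Each relative (vertical axis) against Clec7a (horizontal axis), both as deviation from the mean of 10 arrays in thousandths of the deposited score; each point is 1 array, coloured by group. Vehicle replicate 3 lies far to the right in every panel, high for Clec4a2 and Clec10a and below the mean for Clec4d, Clec4e and Clec4n.

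With each array left out in turn, Clec4a2 passed in 4 of 10 cases. Its r was still 0.762 to 0.795 without vehicle replicates 2, 4 or 5 or maslinic acid replicates 4 or 5, where the adjusted permutation p was 0.0502 to 0.0699, and it was lowest without vehicle replicate 3. Without that array, Clec4e (r = 0.893), Clec5a (0.862), Clec4d (0.833) and Clec4n (0.806) passed over the 6 relations, with exact permutation p-values of 0.00138, 0.00437, 0.00574 and 0.0124 (adjusted 0.00825, 0.0115, 0.0115 and 0.0187). Clec4a2 was then at 0.616 (exact p = 0.0812, adjusted 0.0975) and Clec10a at -0.036 (exact p = 0.928, adjusted 0.928). Without vehicle replicate 5, Clec4e was at -0.094 and Clec5a passed (r = 0.731, exact p = 0.00801, adjusted 0.0480). These 2 arrays were also the farthest from the median of Clec7a, and without both r was 0.688 for Clec4d, 0.737 for Clec4e, 0.484 for Clec4n, 0.243 for Clec4a2, 0.649 for Clec5a and 0.288 for Clec10a, none of them passing after adjustment. The relation of Clec4a2 and of Clec10a to Clec7a therefore rested on those arrays. Within groups, as deviations from the group means, r was 0.749 for Clec4a2 and 0.773 for Clec10a, 0.422 for Clec5a, 0.334 for Clec4d, 0.202 for Clec4n and 0.004 for Clec4e.

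**Figure D4:**
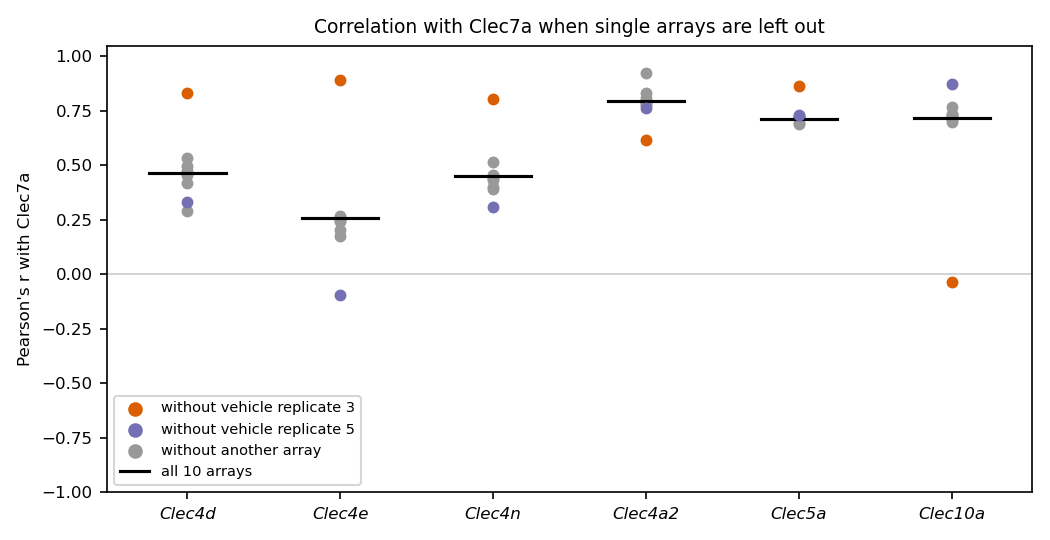
Pearson's r with Clec7a for each relative over all 10 arrays (black line) and with each array left out in turn (points), with vehicle replicates 3 and 5 coloured. Leaving out vehicle replicate 3 lifts Clec4d, Clec4e, Clec4n and Clec5a to between 0.806 and 0.893 and takes Clec10a to -0.036.

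Among the relatives themselves, the neighbours Clec4d, Clec4e and Clec4n ran together. The probe sets of Clec4d and Clec4n carry the label for shared probes, so signal from a near relative could enter their r and cannot be told apart. Of 15 pairs, computed after the values had been seen, 8 passed on r after adjustment. Clec4d with Clec4n had r = 0.855 (permutation p = 0.0009, adjusted 0.00945; rho = 0.855, adjusted p = 0.0442), and Clec4d with Clec4e had r = 0.844 (permutation p = 0.00126, adjusted 0.00945; rho = 0.745, adjusted p = 0.0552). Clec4e with Clec4n had r = 0.893 (permutation p = 0.00509, adjusted 0.0191; rho = 0.648, adjusted p = 0.122), which was 0.609 without vehicle replicate 5 and 0.454 without the 2 arrays farthest from the median of Clec4e. The other 2 pairs stayed at 0.737 or above without vehicle replicate 5. Clec4n also ran with Clec5a (r = 0.871, permutation p = 0.0025, adjusted 0.0125; rho = 0.770, adjusted p = 0.0461), at 0.668 without vehicle replicate 5. Within groups r of these 4 pairs was between 0.821 and 0.892. Clec10a ran with none of these 4 genes, at r from -0.257 (Clec4e) to 0.227 (Clec5a), with adjusted permutation p-values of 0.472 and 0.575. The remaining pairs passing on r included Clec4a2 with Clec5a (r = 0.761, adjusted permutation p = 0.0268). The others, at an adjusted permutation p of 0.0472, were Clec4e with Clec5a (0.746), Clec4n with Clec4a2 (0.688) and Clec4a2 with Clec10a (0.665). Clec4a2, highest on vehicle replicate 3, thus also ran with Clec5a and Clec4n, highest on vehicle replicate 5.

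The genes most like Clec7a outside the set were not lectins. Among the 6736 genes with 10 distinct values that remained when the 7 were set aside, the 10 with the highest r over the 10 arrays were Ifit1bl2, Hacd4, Cd300lb, Ssna1, Glipr1, Evi2a, Srgn, Rnf11, Zfp101 and Dscc1, at r between 0.952 and 0.981. Srgn encodes serglycin, the proteoglycan of secretory granules of blood cells (r = 0.955, rho = 0.964), and Cd300lb an activating receptor of myeloid cells (r = 0.964, rho = 0.952). All 10 were highest on vehicle replicate 3, like Clec7a, and without vehicle replicates 3 and 5 their r lay between 0.651 and 0.904. In 5 of them, Hacd4, Cd300lb, Glipr1, Evi2a and Srgn, the groups did not overlap either. Every maslinic acid array was below every vehicle array there, as in 1.17% of all genes with 10 distinct values. As the 10 genes were picked for following Clec7a, this is no independent support. In all 107 of the 6736 genes had r above 0.9, and 62 had r below -0.9.

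Of 36 other C-type lectin genes listed, 32 were measured, with 21 lower and 10 higher means in maslinic acid mice (median g = -0.42). At an unadjusted p under 0.05 there were 3 lower and 0 higher, where 8.83% of all genes were called in either direction. These were Clec2i (g = -1.86, 95% CI -3.26 to -0.39), Clec1b, the platelet receptor CLEC-2 (-1.44, -2.72 to -0.09), and Olr1, the scavenger receptor LOX-1 (-1.28, -2.53 to 0.03), and each was highest on vehicle replicate 3. Their adjusted p-values in limma were 0.482, 0.514 and 0.552. Some genes are named for their place or kinship, with values in view. Of the neighbours of Clec7a, Olr1 is given above and Clec1a was at 0.22 (95% CI -0.91 to 1.34). Clec4b1, which lies beside Clec4a2, was at -0.66 (95% CI -1.80 to 0.53), Clec4a3, a close relative of it, at 0.03 (-1.09 to 1.15), and Mgl2, the neighbour and closest relative of Clec10a, at -0.57 (-1.71 to 0.60).

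Signalling genes below the receptors went both ways. Of 29 listed, 24 were measured, with 13 lower and 11 higher means (median g = -0.06). At an unadjusted p under 0.05 there were 2 lower and 1 higher, where 4.54% of all genes were called lower and 4.29% higher. Map3k7, the kinase TAK1, was at g = -3.19 (95% CI -5.05 to -1.26, adjusted p = 0.418 in limma), but this is a mean difference of -0.0048 thousandths over 7 distinct values, a few rounding steps of the table. Pik3r1, a regulatory subunit of PI3 kinase, was at 1.85 (0.39 to 3.25, adjusted p = 0.483). The adaptors and the CARD9 partners are given for their role. Tyrobp was at -1.27 (95% CI -2.52 to 0.03, adjusted p = 0.552), Hcst at -1.21 (-2.44 to 0.08), Bcl10 at -1.22 (-2.45 to 0.08, 7 distinct values), Malt1 at -0.45 (-1.58 to 0.70), Fcer1g at -0.27 (-1.39 to 0.86) and Syk at 0.24 (-0.89 to 1.36). With arrays centred on their medians, 20 of the 24 signalling genes had a lower mean, as did 85.1% of all genes.

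Of 7 inhibitory phosphatases, adaptors and ubiquitin ligases 5 had a lower and 2 a higher mean (median g = -0.10). Cblb, a ligase that restrains Syk-coupled receptors, was at 1.79 (95% CI 0.35 to 3.17, adjusted p = 0.488 in limma), and the docking protein Dok2 at -0.79 (-1.95 to 0.41, 7 distinct values). Of 17 genes that Dectin-1 ligands are known to induce, 12 were lower and 5 higher (median g = -0.12). At an unadjusted p under 0.05 there was 1 lower, where 4.54% of all genes were called lower. The gene was Pla2g4a, the phospholipase that releases arachidonic acid (g = -1.85, 95% CI -3.24 to -0.38, adjusted p = 0.483 in limma), and Il10 was at 0.69 (-0.49 to 1.84, 8 distinct values). Of 5 host proteins reported to bind Dectin-1 or Mincle, 4 had a higher mean (median g = 0.25), with Anxa5 at 1.08 (-0.18 to 2.29) and Anxa1 at -1.15 (-2.37 to 0.13).

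Among markers of the cells that carry these receptors, none passed after adjustment in limma. Of 13 measured neutrophil markers 11 were lower in maslinic acid mice (median g = -0.57), with Cxcr2 at -2.71 (95% CI -4.39 to -0.96, adjusted p = 0.418 in limma) and Csf3r at -1.89 (-3.30 to -0.41). The 2 higher ones, named outside the rule, were Lcn2 at 1.14 (-0.14 to 2.35) and Mmp9 at 1.01 (-0.24 to 2.20). Among the 11 were S100a9 and S100a8, with 2 distinct values each. Their means differed by only -0.0004 and -0.0002 thousandths, less than a rounding step of the table. The mean z-score of the 13 markers, each with equal weight, ran from -0.16 to 0.76 in vehicle and from -0.46 to -0.09 in maslinic acid mice. Their summed scores ran from 149.01 to 149.03 and from 149.01 to 149.02. With that z-score as a covariate, in the limma fit g was -0.95 for Clec7a, -2.12 for Clec5a, -1.88 for Clec4n, -1.69 for Clec4e, -1.22 for Clec4d, -0.59 for Clec4a2 and 0.44 for Clec10a, each with an adjusted p of 0.725 or more. With a covariate g is the adjusted treatment coefficient over the residual SD of that fit, and is not comparable with g of the group means. The neutrophil z-scores of the groups overlapped only from -0.16 to -0.09, so treatment and this score were largely confounded. Of 17 macrophage and monocyte markers 7 were lower and 10 higher (median g = 0.19). The 2 of lowest p were both lower, Cx3cr1 at -1.65 (-2.98 to -0.24) and Ccr2, the receptor that draws monocytes into tissue, at -1.33 (-2.59 to -0.01). Mertk, next by p and named outside the rule, was higher at 1.31 (-0.01 to 2.57). The z-score of the 17 markers ran from -0.37 to 0.42 in vehicle and from -0.45 to 0.62 in maslinic acid mice, with summed scores from 154.61 to 154.62 and from 154.60 to 154.63. With it as a covariate g was -1.46 for Clec7a and -1.78 for Clec5a. What part either cell type has in the differences was otherwise not tested.

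The other marker lists were as follows, with the 2 genes of lowest p named in each, whatever the direction of the rest. Dendritic cell markers were lower in 4 and higher in 4 of 9 (median g = 0.00), with Siglech at -0.71 and Cd209a at -0.65. T cell markers were lower in 6 of 7 (median g = -0.82; z-score 0.04 to 0.61 in vehicle and -0.96 to 0.46 in maslinic acid mice), with Cd4 at -2.35 and Cd3d at -0.98, and B cell markers in 3 of 4 (-0.39), with Pax5 at -1.45 and Ms4a1 at -0.50. The mean of Cd4 differed by only -0.006 thousandths over 7 distinct values and that of Pax5 by -0.002 over 5, a few rounding steps of the table, and only 2 of the 7 T cell markers had 10 distinct values. Platelet markers were lower in 7 of 8 (-0.98; z-score -0.65 to 1.40 and -1.15 to 0.24), with Ppbp at -1.62 and Pf4 at -1.48. Mast cell markers were lower in 3 and higher in 3 of 6 (0.02), with Ms4a2 at -2.22 and Cpa3 at -0.68. Skeletal muscle markers were higher in 10 of 10 (0.40), with Myh4 at 0.84 and Acta1 at 0.81, and synovial fibroblast markers in 10 of 10 (0.33), with Col1a1 at 0.95 and Pdgfra at 0.94. None of these genes passed after adjustment in limma, and the part of these cell types in the differences was not tested.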

How the data were processed

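Total RNA of dissected synovium from the left hind leg, 100 ng per mouse, was labelled with biotin and hybridised to Affymetrix mouse arrays, 1 per mouse, per the labels' protocols. The deposited score per probe set was made by the authors with R 3.2.1, per the submitters' processing notes. How signals were corrected, normalized or summarised was not given in the sources used here. These values are named a score because their scale is unknown, although log2 values had been foreseen.

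Of 39993 probe sets, 34202 named 1 gene, 931 several and 4860 were unnamed here. Maslinic acid was compared with vehicle with limma 3.58.1 in R 4.3.3 (a linear model with moderated variances), without covariates, two-sided, with Benjamini-Hochberg adjustment over all probe sets and a threshold of 0.05. Single genes were also tested over all 252 assignments of the arrays, and correlations with 100000 permutations or, under 10 arrays, all of them. Intervals of g came from the noncentral t distribution (scipy 1.17.1). Differences at floating-point precision were set to 0. Python 3.11.15 was used, and scripts were tested on simulated data. Other scalings, filters, models, covariates and left-out arrays were tried.

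Genes named were the members, the 2 genes of lowest p in each of 5 pathway and 9 marker lists, the 10 most like Clec7a, and those said in the text to be named outside this rule. Members and lists were chosen with earlier results of these data known. The number of arrays limits the precision, and the labels give no batch.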

Additional observations from a re-analysis of the deposited data

Results flagged for a closer look

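In groups of 5 arrays the highest or lowest array was compared with the rest by the share of the group's range that its gap to the nearest array takes, with a limit of 0.71. Of 32 groups of arrays looked at, 3 passed, and chance alone gives about 1 in 20. Vehicle replicate 5 was far above the other vehicle mice for Clec4n (0.733), vehicle replicate 3 for Clec10a (0.81), and maslinic acid replicate 2 was far above the other treated mice for Clec4a2 (0.87). Without that treated mouse g of Clec4a2 was -1.31. The cause of these 3 values was not tested.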

How the results depend on the processing

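Clec7a, Clec5a, Clec4d, Clec4e, Clec4n and Clec4a2 kept a lower mean, or a negative coefficient with a covariate, under all 26 alternatives. Several of these changed only the variance model, the probe sets tested or the test, so the sign could not change there. With centring on array medians 85.1% of all genes were lower, and 58.0% after quantile normalization. After adjustment 0 of the 7 genes passed in any. For Clec7a g ran from -1.83 to -1.26 without single arrays and from -1.60 to -0.95 otherwise. The -0.95 came with the neutrophil covariate, where g is an adjusted coefficient over the residual SD. Clec10a ran from -0.59 to 0.22 without single arrays, and had a higher mean without vehicle replicate 3 (g = 0.22) and without vehicle replicates 3 and 5 (0.04). Its adjusted coefficient was also positive with the neutrophil covariate (0.44). The count of these genes at an unadjusted p under 0.05 was 2, and 1 to 2 without single arrays, Clec7a being lost without vehicle replicate 5 (limma adjusted p = 0.615) or maslinic acid replicate 4 (adjusted p = 0.674). With the neutrophil covariate the count was also 2, but of Clec5a and Clec4n. Probe sets passing after adjustment were 8 after quantile normalization and 0 to 1 without single arrays.

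Genes at an unadjusted p under 0.05 numbered 1601, against 372 with centring, 1055 after quantile normalization, 999 above the median level and 669 with 10 distinct values, the last 2 over fewer genes, and 1154 to 2163 without single arrays. Of these, 51.4% were lower, 85.8% after quantile normalization and 37.9% with centring. Lower means among the signalling genes were 20 with centring and 4 with 10 distinct values, and 11 to 15 without single arrays. Among inhibitory phosphatases and ligases they were 2 with the neutrophil covariate (by the adjusted coefficient) and 2 with 10 distinct values, and 3 to 6 without single arrays. Above the median level they were 4 for Dectin-1 response genes and 10 for other lectins, over fewer genes. Among host proteins they were 3 with array weights, 2 with centring, 2 in the exact Wilcoxon test, 0 with 10 distinct values, 3 without vehicle replicates 3 and 5, and 1 to 3 without single arrays. The cause was not tested where no smaller gene set is named.

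Relatives correlated with Clec7a after adjustment numbered 1 (Clec4a2). The number was also 1, but was Clec5a, after quantile normalization (r = 0.795, adjusted permutation p = 0.0482, with Clec4a2 at 0.518, adjusted 0.199), by Spearman's rho, and without vehicle replicate 5. It was 0 within groups, 0 with centring, 0 without vehicle replicates 3 and 5, which are also the 2 farthest arrays, and 0 to 4 without single arrays. Without single arrays r of Clec10a ran from -0.036 (without vehicle replicate 3) to 0.874, and that of Clec4e from -0.094 (without vehicle replicate 5) to 0.893.

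Replicate numbers are shared by the groups, but only 2 of 5 same-numbered pairs had deviations correlated above 0.1 and 2 of 5 vehicle arrays correlated best with their own number, so the numbers were not taken as pairs. With the replicate block g, here over the residual SD of that fit, was -1.48 for Clec7a, -1.65 for Clec5a and -0.37 for Clec10a, with the same 2 genes at an unadjusted p under 0.05.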
